A study of Mus musculus with 14 samples.

Results

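Abca3, Tedc2, Gfer, Meiob, Unkl, Pgap6 and Decr2 are 7 protein-coding genes of mouse chromosome 17 that lie close to Pkd1, the gene of polycystin 1. They were taken by symbol from the 57180 genes of the deposited table, and they were selected on their liver transcript levels, as genes whose counts changed stepwise with Pkd1 genotype. All 7 passed the filter on low counts, as did 16201 genes in all. Their differences between genotypes therefore describe the values that chose them and are given without a test. RNA was sequenced from whole liver of mice on normal chow, all littermates and all with Cre in the genotype label. The 3 groups were Pkd1 Homo (4 mice), Pkd1 Het (4 mice) and WT (6 mice), with 1 library per mouse. Strain, sex and age are not in the labels. The kind of Pkd1 allele and the promoter that drives Cre are not stated there either, and which liver cells carried the change therefore cannot be given. Littermates sorted by Pkd1 genotype are sorted by the DNA that flanks Pkd1 as well. An effect of Pkd1 itself and an effect of that flanking DNA cannot be told apart in this design.

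The 7 genes belong to unrelated pathways. Abca3 is a lipid transporter that loads phospholipid into lamellar bodies and is best known from lung alveolar type II cells. Meiob binds single-stranded DNA together with Spata22 in meiotic recombination, as known from mouse germ cells. Tedc2 acts with Tedc1 and with delta and epsilon tubulin to keep centriole microtubules stable, as known from human cells. Gfer, also called augmenter of liver regeneration, is a sulfhydryl oxidase that re-oxidises Chchd4 in the disulfide relay of the mitochondrial intermembrane space. Unkl is a zinc finger protein related to Unkempt. Pgap6 is a phospholipase that acts on the lipid of GPI anchors, and Decr2 is the dienoyl-CoA reductase with which peroxisomes handle unsaturated fatty acids.

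Abca3 and Tedc2 had the largest changes, in opposite directions, and only 1 tested gene (Ccnf) lies between them. The 250 bases before their annotated starts are shown for that reason, 5′ to 3′ on the strand of each gene, from RefSeq on GRCm38.p6 (the counts were made on GRCm39). Capitals mark the letters GGGCGG or their complement. The Abca3 sequence is chr17:24351773-24352022, plus strand, and the Tedc2 sequence is chr17:24220852-24221101, minus strand.
Abca3: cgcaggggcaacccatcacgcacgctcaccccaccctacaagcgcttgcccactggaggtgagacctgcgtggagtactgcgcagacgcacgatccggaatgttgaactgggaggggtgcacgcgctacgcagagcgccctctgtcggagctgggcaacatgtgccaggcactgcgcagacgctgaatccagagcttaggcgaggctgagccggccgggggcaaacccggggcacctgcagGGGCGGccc
Tedc2: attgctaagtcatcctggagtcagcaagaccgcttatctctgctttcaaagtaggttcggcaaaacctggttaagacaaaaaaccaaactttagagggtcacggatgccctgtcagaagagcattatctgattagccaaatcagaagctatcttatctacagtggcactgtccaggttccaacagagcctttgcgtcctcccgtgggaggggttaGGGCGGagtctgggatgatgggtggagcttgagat
Each window held 1 copy of GGGCGG, which 32.7% of 32851 promoter windows of the same length hold on either strand. Neither window held the TATA box letters TATAAA on either strand, which 12.4% of all windows hold. Neither held the CAAT box letters CCAAT, found in 33.8% of windows on either strand. The E-box letters CACGTG, in 6.02% of windows, were also without a match, as was the nuclear receptor element AGGTCA, in 14% of windows. G and C made up 67.6% of the Abca3 window and 48.8% of the Tedc2 window. A match or its absence describes these letters only. Of the 7 genes, 6 had a promoter entry.

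Libraries held 18573739 to 28431875 counts in Homo, 22833853 to 26245475 in Het and 25238140 to 40925973 in WT. Levels are given as CPM, counts of a gene relative to the library size after scaling with TMM factors, which correct for differences in RNA composition between libraries. The raw counts of the 7 genes ran from 49 (Meiob) to 6265 (Abca3) in single libraries. Hepatocyte markers were the highest of the marker lists in each library, with 6 genes (Alb, Apoa1, Ttr, Cyp2e1, Cps1 and Serpina1a) summing to 51081 CPM or more. The 5 lymphocyte markers, none of them at 0, summed to 17.7 to 25.1 CPM in Homo, 17.4 to 19.6 CPM in Het and 6.33 to 15.03 CPM in WT. The sums of both mutant groups thus lay above those of all WT libraries, but the single markers did not move together. Of the 4 lymphocyte markers tested, 3 were above 0 and 1 below in Homo over WT. In Het over WT 2 were above and 2 below (median log2 -0.02). Of these 4, 1 lies on chromosome 17, as Pkd1 does. The part of lymphocytes in the results below was not tested. The 6 Kupffer cell markers summed to 195 to 210 CPM in Homo, 164 to 199 CPM in Het and 164 to 196 CPM in WT. In Homo over WT 5 of these 6 were above 0 (median log2 0.21, 3 at an unadjusted p under 0.05), and their part was not tested either. In bulk liver, fewer cells of a type and less RNA per cell cannot be told apart. The 6 markers of cholangiocytes (bile duct cells) summed to 20.8 to 66.8 CPM in Homo, 28.4 to 36.7 CPM in Het and 25.5 to 36.2 CPM in WT. Homo libraries thus reached beyond the WT range on both sides, and 3 of these 6 were above 0 and 3 below in Homo over WT. Of 40 tested markers of liver and lung cell types, 0 passed in Homo or in Het against WT (edgeR quasi-likelihood test, adjusted p under 0.05).

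Pkd1, the targeted gene, was at 23.1, 26.2, 25.5 and 26.4 CPM in Homo and at 31.6, 28.1, 32.6 and 36.7 CPM in Het. In WT it ran from 31.4 to 37.7 CPM. The Homo libraries lay below all others, while Het and WT overlapped. The log2 fold change was -0.46 in Homo over WT (SE 0.0802, edgeR adjusted p = 0.0246) and -0.11 in Het over WT (edgeR adjusted p = 0.998). The call in Homo ended when Homo 1, 2, 3 or 4 or WT 3, 4 or 6 was left out, with edgeR adjusted p up to 0.131. The counts cover the whole gene, so transcripts that lack only some exons are still counted.

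Abca3 and Meiob were higher and the other 5 genes were lower in mice with altered Pkd1. In all 7 the Homo and WT libraries did not overlap: 2 genes lay above and 5 below. Over all genes tested, 0.735% had every Homo library above every WT library and 0.42% had every Homo library below. Since these contrasts chose the genes, nothing is read from that difference.

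Abca3 was at 207, 206, 209 and 218 CPM in Homo and at 140, 142, 138 and 137 CPM in Het. In WT the lowest, median and highest values were 52.9, 57.8 and 60.4 CPM. The 3 genotypes formed 3 tight, separate bands. The fold was 3.69 in Homo over WT (log2 1.88, SE 0.0542), 2.45 in Het over WT (log2 1.29, SE 0.0540) and 1.51 in Homo over Het (log2 0.59, SE 0.06). The coefficient of variation within a genotype was 2.46% in Homo, 1.68% in Het and 5.67% in WT. The within-genotype standard deviation of Abca3 was 0.06 on the log2 CPM scale. A choice on change between genotypes favours a small spread, so its rank is a description. Only 5.43% of the 1547 other genes within 2-fold of its mean level had a smaller one. The 10 markers of lung type II cells and lamellar bodies summed to 7.64 to 10.3 CPM in Homo, 9.14 to 11.1 CPM in Het and 8.74 to 11.4 CPM in WT. Of these, Sftpc and Sftpb, which encode surfactant proteins, had no count in any of the 14 libraries. The other 8 had counts, and 4 passed the filter on low counts, all 4 with a log2 fold change below 0 in Homo over WT and 0 of them called by edgeR.

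Meiob was at 8.65, 7.48, 7.14 and 6.59 CPM in Homo and at 7.56, 5.05, 4.98 and 4.83 CPM in Het. In WT the lowest, median and highest values were 1.88, 2.62 and 3.96 CPM. Both mutant genotypes lay above WT, and Homo and Het overlapped because of Het 1. The fold was 2.77 in Homo over WT (log2 1.47, SE 0.184) and 2.07 in Het over WT (log2 1.05, SE 0.186). These values rest on 49 to 262 counts per library, the fewest of the 7 genes.

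Tedc2 had the largest decrease of the 7. It was at 15.9, 21.6, 24.9 and 28.8 CPM in Homo and at 53.3, 48.1, 56.3 and 64.2 CPM in Het. WT libraries had a lowest, median and highest value of 86.5, 92.8 and 104 CPM. The bands were again separate, but Homo libraries differed among themselves by more than those of Abca3, with a coefficient of variation of 23.9%. The fold was 0.243 in Homo over WT (log2 -2.04, SE 0.139), 0.594 in Het over WT (log2 -0.75, SE 0.131) and 0.41 in Homo over Het (log2 -1.29, SE 0.144).

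Gfer was at 15.2, 17.6, 16.7 and 18.6 CPM in Homo and at 21.4, 19.6, 20.6 and 20.3 CPM in Het. WT libraries had a lowest, median and highest value of 22.8, 25.0 and 30.3 CPM. Gfer was the third gene whose genotypes were fully separate, in smaller steps than Abca3 and Tedc2. The log2 fold change was -0.58 in Homo over WT (SE 0.0803) and -0.32 in Het over WT (SE 0.0794). The strict order Homo above Het above WT in every library was met by 4 of the 16201 genes (0.0247%), Abca3 among them. The reverse order was met by 3 genes (0.0185%), with Tedc2 and Gfer among them.

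Unkl was at 6.77, 6.62, 6.73 and 6.86 CPM in Homo and at 10.4, 7.32, 10.9 and 9.31 CPM in Het. WT libraries had a lowest, median and highest value of 10.3, 11.7 and 13.6 CPM. Homo libraries were nearly equal, with a coefficient of variation of 1.49%, while Het libraries spread (16.8%) and reached into the WT range. The log2 fold change was -0.82 in Homo over WT (SE 0.112) and -0.32 in Het over WT (SE 0.109). Of the annotated exonic bases of Unkl, 1113 (19.6%) are shared with Gnptg on the other strand. Abca3 shares 914 exonic bases (9.75%) with D330041H03Rik and Tedc2 shares 167 (6.55%) with BC028777, both on the other strand. The use of strand in counting is not given in the sources used here, so reads of these 3 genes and of their partners cannot be told apart there. Gnptg itself was at 10.3 ± 1.18 CPM in Homo, 9.47 ± 0.294 CPM in Het and 8.82 ± 0.913 CPM in WT (SD, n = 4, 4 and 6).

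Pgap6 was at 10.9, 9.68, 12.2 and 7.52 CPM in Homo and at 14.1, 14.6, 13.3 and 12.6 CPM in Het. In WT the lowest, median and highest values were 12.8, 16.9 and 18.4 CPM. The lowest WT library, WT 4, fell within the Het range. Pgap6 differed by log2 -0.71 in Homo over WT (SE 0.124) and by -0.27 in Het over WT (SE 0.122).

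Decr2 was at 65.7, 61.0, 76.6 and 84.8 CPM in Homo and at 81.3, 106, 99.7 and 101 CPM in Het. In WT the lowest, median and highest values were 99.3, 115 and 141 CPM. Homo lay below WT, and Het overlapped with both, with Het 1 inside the Homo range. The log2 fold change was -0.70 in Homo over WT (SE 0.112) and -0.27 in Het over WT (SE 0.111). Within a genotype Decr2 was more variable than Abca3. Of 1935 other genes within 2-fold of its mean level, 76.4% had a smaller within-genotype standard deviation.

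**Figure D1:**
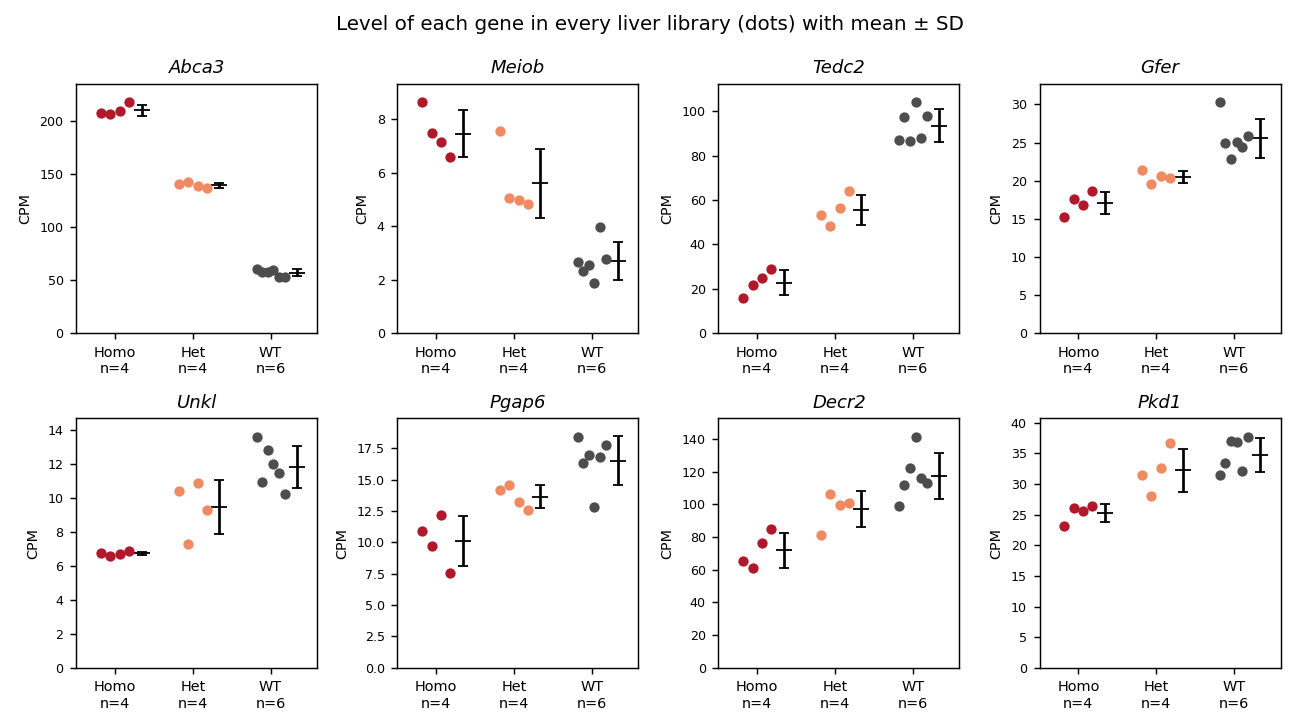
CPM of the 7 genes and of Pkd1 (vertical axes, each from 0) in every library of Homo, Het and WT (dots, in replicate order), with mean and SD beside them (n = 4, 4 and 6). Abca3 stands at 210, 139 and 56.9 CPM on average, in bands that do not touch, while Unkl, Pgap6 and Decr2 in Het reach into the WT range.

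Het livers were intermediate for all 7 genes, and on the linear CPM scale they lay near the middle. The distance of the Het mean from the WT mean, as a percentage of the distance between the Homo and WT means, was 53.8% for Abca3 and 60.9% for Meiob. It was 53.8% for Tedc2, 59.5% for Gfer, 46.4% for Unkl, 44.3% for Pgap6 and 44.6% for Decr2. Abca3 placed its Het libraries most tightly (SD 1.53 percentage points, n = 4), and Unkl most loosely (SD 31.1). Without Het 1 the value for Meiob was 47.1%. Abca3 differed by 82.4 CPM between Het and WT and by 70.7 CPM between Homo and Het. For Tedc2 those differences were -38.0 and -32.7 CPM. On the log2 scale the Het mean of Abca3 lay 0.35 above the midpoint of Homo and WT (SE 0.0496) and that of Tedc2 0.27 above it (SE 0.117). Pkd1 was not among the genes described so: its log2 fold change was -0.35 in Homo over Het, against -0.11 in Het over WT. The genes were picked for change with dose, so an intermediate Het is part of the choice.

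**Figure D2:**
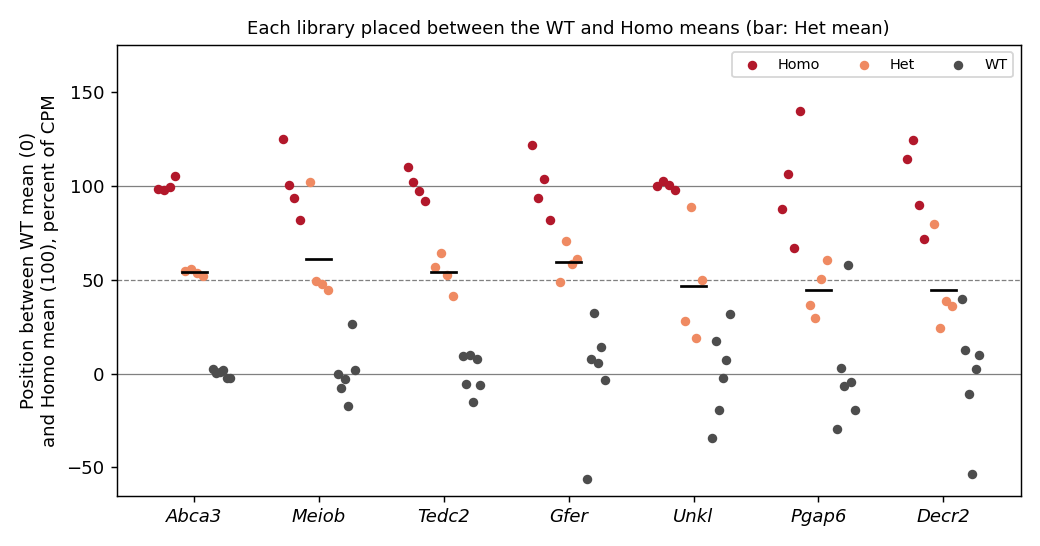
Level of each library placed between the WT mean (0) and the Homo mean (100), in percent of CPM, for the 7 genes in Homo, Het and WT (dots: libraries, black bar: Het mean). The Het means sit between 44.3 and 60.9, and Abca3 has the least spread in each genotype but Homo, where Unkl has less.

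The genes around them gave the local setting. Within 2 Mb of the start of Pkd1, 249 genes are placed and 106 were tested. In order along the chromosome these are Tedc2, Abca3, Pkd1, Gfer, Meiob, Unkl, Decr2 and Pgap6, with other tested genes among them. There are 14 tested genes between Abca3 and Gfer (Pkd1 and Tsc2 included), 9 between Gfer and Meiob, 16 between Meiob and Unkl and 26 between Unkl and Decr2. A single tested gene lies between Decr2 and Pgap6. The 7 genes lie on both strands, Tedc2, Gfer and Decr2 on the minus strand and the rest on the plus strand.

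In Homo against WT 8 of the 106 passed (adjusted p under 0.05), the 7 genes and Pkd1. The background over all genes tested was 36 of 16201 (0.222%), with 26 higher (0.16%) and 10 lower (0.0617%). The calls of the 7 genes follow from their choice on this contrast, and nothing is read from them. Of the 99 others 1 passed by edgeR, Pkd1, which was lower, and 4 passed by DESeq2 (Flywch2, Ntn3, Ccnf and Pkd1). The edgeR count was 0 without Homo 1, 2, 3 or 4 or WT 3, 4 or 6. At an unadjusted p under 0.05 there were 23 of these 99 (23.2%), against 4.73% of all genes tested, 12.2% of 647 chromosome 17 genes outside the window and 4.27% of genes placed on other chromosomes. Of the 99, 76 had a log2 fold change within 0.3 of 0 (76.8%, against 82.9% of all genes). Their median was -0.01, against 0.00 over all genes. The 99 are left once genes chosen for change are taken out, so small changes among them follow in part from that choice. With the 7 genes included, 76 of the 106 lay within 0.3 of 0 (71.7%) and 30 had an unadjusted p under 0.05 (28.3%). In Het against WT 0 of the 99 passed by edgeR, and 0 by DESeq2. An unadjusted p under 0.05 was found for 13 of them (13.1%), against 4.67% of all genes tested. The share was 10% of chromosome 17 genes outside the window and 4.31% of genes placed on other chromosomes. The background of adjusted calls in Het was 9 of 16201 (0.0556%), 9 higher and 0 lower by edgeR and 25 higher and 7 lower by DESeq2. In the trend over genotype steps 1 of the 99 passed, again Pkd1, against 0.185% of all genes (0.13% higher, 0.0556% lower). That count of 1 became 0 without Homo 1, 2 or 4, Het 1 or 3 or WT 2, 3, 4 or 6. The 30 trend calls over all genes became 19 without WT 1 and 19 without WT 6. Homo libraries lay above all WT libraries for 1 of the 99 (1.01%, against 0.735% of all genes tested), Hs3st6. They lay below them for 4 (4.04%, against 0.42% of all genes tested), Flywch2, Eci1, Pkd1 and Tsc2.

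Several direct neighbours of the 7 genes differed between Homo and WT by less than the spread between libraries. Hagh, a glyoxalase of methylglyoxal removal that follows Meiob, was at 135 ± 1.80 CPM in Homo, 131 ± 5.34 CPM in Het and 138 ± 6.38 CPM in WT (SD, n = 4, 4 and 6). Mrpl28, a mitochondrial ribosomal protein gene that follows Pgap6, was at 17.3 ± 1.84, 17.2 ± 0.519 and 16.6 ± 1.09 CPM in Homo, Het and WT. Rab11fip3, an effector of Rab11 that precedes Decr2, was at 17.5 ± 1.23 CPM in Homo and 17.6 ± 0.525 CPM in WT. Zfp598, a ubiquitin ligase that senses stalled ribosomes and precedes Gfer, was at 49.7 ± 2.61 CPM in Homo and 46.3 ± 5.75 CPM in WT. None of these 4 passed in Homo against WT, with edgeR adjusted p = 0.998 for each. Nor did Uqcc4, Nme4, Noxo1, Gnptg or D330041H03Rik, at the same adjusted p.

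Further neighbours did not pass by edgeR either. Ccnf, which encodes cyclin F and lies between Tedc2 and Abca3, was at 2.91, 4.86, 9.37 and 6.86 CPM in Homo and at 8.18, 5.41, 9.40 and 8.23 CPM in Het. In WT Ccnf ran from 9.10 to 16.1 CPM, so that Homo 3 reached the lowest WT library (log2 -1.02, SE 0.265, edgeR adjusted p = 0.401). Ntn3, which encodes a netrin and lies next to Tedc2, averaged 2.55 ± 0.871 CPM in Homo, 3.75 ± 0.507 CPM in Het and 4.74 ± 1.22 CPM in WT (log2 -0.90, edgeR adjusted p = 0.331). With DESeq2 both passed in Homo against WT (DESeq2 adjusted p = 0.0207 for Ccnf and 0.0201 for Ntn3). Hs3st6, a heparan sulfate sulfotransferase gene next to Meiob, averaged 1.27 ± 0.491 CPM in Homo, 0.899 ± 0.582 CPM in Het and 0.415 ± 0.206 CPM in WT (log2 1.63, SE 0.5, edgeR adjusted p = 0.732). Jpt2 averaged 15.7 ± 1.74 CPM in Homo, 16.9 ± 3.69 CPM in Het and 22.3 ± 2.72 CPM in WT (log2 -0.51, edgeR adjusted p = 0.411). Dusp1, a stress-induced phosphatase gene, had log2 0.52, Thoc6 0.47, Zfp213 -0.50, Gm20683 -0.68 and Gm23123 0.84 in Homo over WT, each with an edgeR adjusted p of 0.998. The smallest difference among the 7 genes was that of Gfer (log2 -0.58). Larger differences outside the 7 were those of Flywch2 (log2 -2.21), Hs3st6, Ccnf and Ntn3, among others. Flywch2 was near the floor, at 0.154 CPM in Homo, 0.237 CPM in Het and 0.748 CPM in WT, with 0 to 36 counts in single libraries. It was named after its values were seen. Gm20683 and Gm23123 had no count in some libraries. Tsc2, the tested gene next to Pkd1, whose product tuberin holds back mTORC1 signalling, was at 37.1, 41.2, 41.2 and 41.6 CPM in Homo and 41.8 to 50.9 CPM in WT (log2 -0.22, edgeR adjusted p = 0.51).

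**Figure D3:**
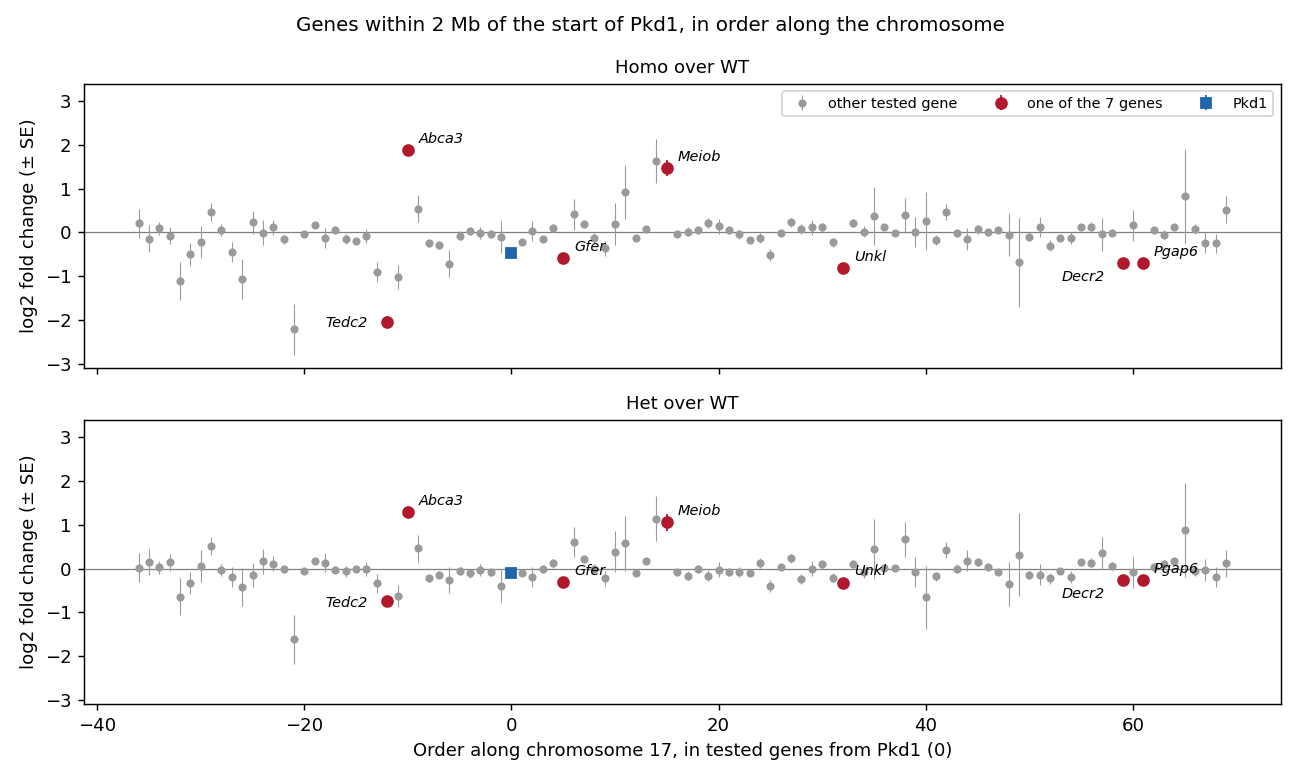
Log2 fold change (vertical axis, bars: SE) of the 106 tested genes within 2 Mb of the start of Pkd1, by their order from Pkd1 (0), for Homo over WT and Het over WT. Red points are the 7 genes, the blue square is Pkd1 and grey points are the other genes. In Homo 76 of the 99 genes other than the 7 lie within 0.3 of 0, while Hs3st6 stands at 1.63 beside Meiob at 1.47, and Ccnf at -1.02 and Ntn3 at -0.90 flank Tedc2.

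The families and pathways of the 7 genes were described with 7 lists of partners. Of 127 tested partner genes, 0 passed in Homo and 0 in Het against WT, by edgeR or by DESeq2. At an unadjusted p under 0.05 there were 13 in Homo (10.2%, against 4.73% of all genes) and 3 in Het (2.36%, against 4.67%).

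For Abca3, 8 of 15 other members of the ABCA transporter subfamily were tested, and their median log2 fold change in Homo over WT was 0.04. Abca8b was at 60.0 ± 5.12 CPM in Homo and 54.1 ± 4.99 CPM in WT, and Abca9 at 7.51 ± 0.901 CPM in Homo and 6.55 ± 0.956 CPM in WT. Abca7 was at 7.04 ± 0.75 CPM in Homo, 8.39 ± 1.32 CPM in Het and 6.23 ± 0.552 CPM in WT. Its edgeR adjusted p was 0.998 in Homo and 0.594 in Het. Abca17, whose transcript gave the best partial match to Abca3, reached at most 6 counts in a library.

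For Tedc2, 22 of 23 centriole genes were tested (median log2 0.01, 12 above 0 and 10 below). Tedc1, its binding partner, had at most 10 counts in any library and was not tested. The delta tubulin gene Tubd1 was at 3.60 ± 0.399 CPM in Homo, 3.41 ± 0.0868 CPM in Het and 3.56 ± 0.843 CPM in WT. The epsilon tubulin gene Tube1 was at 0.801 ± 0.307 CPM in Homo, 0.828 ± 0.54 CPM in Het and 0.697 ± 0.155 CPM in WT. These 3 partners, Chchd4 and Abca17 were picked for their place beside one of the 7 genes, after their values were known. Cep192, a scaffold of centriole duplication, had the smallest p of the list, at 7.11 ± 1.74 CPM in Homo and 5.35 ± 0.654 CPM in WT (edgeR adjusted p = 0.976). Poc1b and Sass6 followed (edgeR adjusted p = 0.998 for both).

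For Gfer, 27 genes of the disulfide relay and its substrates were tested (median log2 -0.04, 9 above 0 and 18 below). Chchd4, the receptor that Gfer re-oxidises, was at 10.2 ± 1.07 CPM in Homo, 9.61 ± 0.971 CPM in Het and 9.71 ± 1.44 CPM in WT. The small translocase gene Timm13 was at 23.2 ± 0.456 CPM in Homo and 26.1 ± 1.46 CPM in WT, the copper chaperone gene Cox17 at 20.6 ± 1.53 CPM in Homo and 23.5 ± 1.68 CPM in WT. Chchd10 was at 256 ± 28.2 CPM in Homo and 279 ± 15.7 CPM in WT. None of the 3 passed (edgeR adjusted p = 0.998).

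For Meiob, 11 of 30 genes of meiotic recombination passed the filter on low counts (median log2 0.07). Spata22, its binding partner, was at 2.21, 2.00, 2.23 and 1.59 CPM in Homo and at 1.42, 1.05, 1.23 and 0.948 CPM in Het. In WT Spata22 ran from 0.894 to 2.11 CPM and overlapped with Homo (log2 0.61, SE 0.253, edgeR adjusted p = 0.998). Brdt and Rpa3 also had an edgeR adjusted p of 0.998.

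For Pgap6, 27 of 30 genes of GPI anchor synthesis and remodelling were tested (median log2 0.04, 15 above 0 and 12 below). Pigs, a subunit of the transamidase that attaches the anchor, was at 19.3 ± 2.42 CPM in Homo and 16.5 ± 1.91 CPM in WT, and Dpm2 at 7.31 ± 0.981 CPM in Homo and 6.15 ± 0.675 CPM in WT. Pigq, which lies on chromosome 17 between Unkl and Decr2, was at 26.8 ± 1.70 CPM in Homo and 24.6 ± 0.883 CPM in WT. The 3 genes had an edgeR adjusted p of 0.998. For Unkl, its relative Unk was at 8.35 ± 1.12 CPM in Homo and 7.66 ± 1.07 CPM in WT (edgeR adjusted p = 0.998).

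For Decr2, 31 of 33 genes of a list drawn up for peroxisomal fatty acid oxidation were tested. The list is not purely peroxisomal, since it also holds the mitochondrial genes Eci1 and Decr1. In Homo over WT 27 of the 31 had a log2 fold change below 0 and the median was -0.16, against 0.00 over all genes. At an unadjusted p under 0.05 there were 8, and 0 passed after adjustment. Eci1, a mitochondrial isomerase gene that itself lies between Abca3 and Pkd1, was at 46.9 ± 5.81 CPM in Homo and 57.0 ± 3.84 CPM in WT (log2 -0.28, edgeR adjusted p = 0.778). Decr1, the mitochondrial relative of Decr2 on chromosome 4, was at 67.9 ± 3.71 CPM in Homo and 77.1 ± 2.69 CPM in WT (log2 -0.18, edgeR adjusted p = 0.807). In Het over WT 22 of the 31 genes were below 0 and the median was -0.05.

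**Figure D4:**
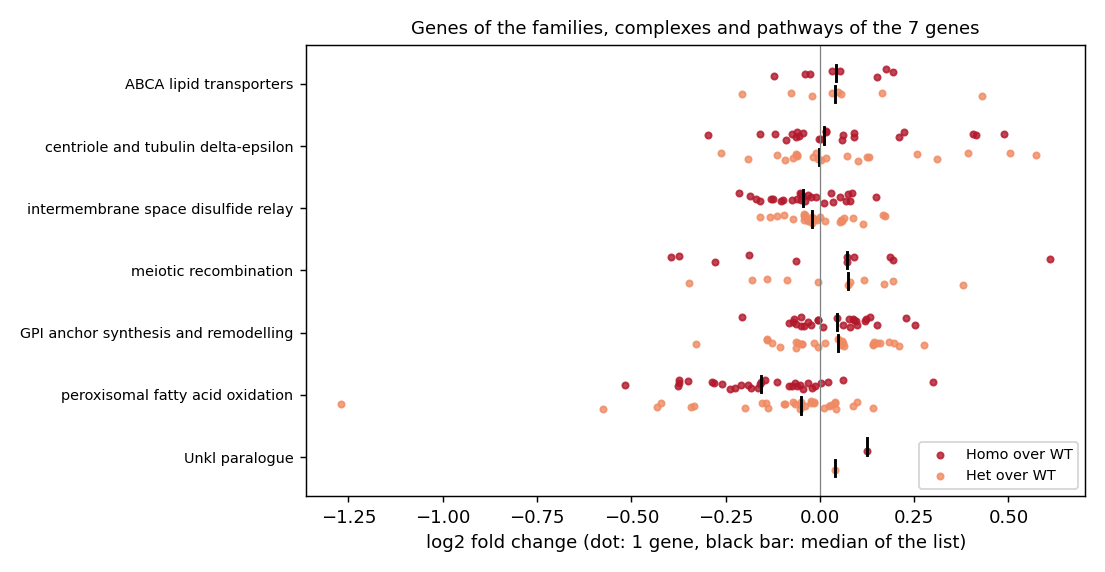
Log2 fold change (horizontal axis) of the tested genes in each of the 7 partner lists for Homo over WT (upper row of each list, red) and Het over WT (lower row, orange), with the median of the list as a black bar. Medians lie within 0.2 of 0 in each list, and the list for Decr2 (peroxisomal fatty acid oxidation) has its Homo median at -0.16.

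Genes with the profile most like each of the 7 were found by Pearson r of log2 CPM over the 14 libraries. Because the libraries fall into 3 genotypes, r mainly describes the genotype steps and was not tested. For Abca3 they were Atp6v0c-ps2 (r = 0.977), Gm10503 (0.976) and Gm10499 (0.974), none of them above 5 CPM in the mean of any genotype. In WT their means were at the floor, at 0.0594, 0.00938 and 0 CPM in that order. Gm10503 and Gm10499 lie on chromosome 17. Atp6v0c-ps2, on chromosome 6, is named as a pseudogene copy of Atp6v0c, so its counts are uncertain. Atp6v0c is itself a tested gene within 2 Mb of the start of Pkd1 on chromosome 17. For Meiob they were Gm10503 (0.948), the BTB domain gene Btbd9 of chromosome 17 (0.941) and ENSMUSG00000121779 (0.931). For Tedc2 they were Riok2, a kinase gene of ribosome maturation on chromosome 17 (0.919), Pkd1 (0.914) and Stau1, an RNA-binding protein gene on chromosome 2 (0.886). For Gfer they were Ccnf (0.852), Riok2 (0.849) and Eif4g1 (0.834), for Unkl Gm47508 (0.908), Stau1 (0.873) and D130020L05Rik (0.861). Gm47508 was near the floor, with means of 0.217 CPM in Homo, 0.391 CPM in Het and 0.481 CPM in WT. For Pgap6 they were Riok2 (0.906), Tcte2 (0.848) and Park7 (0.842), and for Decr2 Mmd (0.895), Tsc2 (0.881) and Tff3 (0.873). Tcte2 was low as well, with means of 0.626 CPM in Homo, 0.806 CPM in Het and 1.07 CPM in WT. Tcte2 and Tff3 lie on chromosome 17. With each genotype's mean removed, r with the top gene was -0.01 for Abca3, -0.72 for Tedc2, 0.63 for Gfer, 0.60 for Meiob, 0.68 for Unkl, 0.65 for Pgap6 and 0.76 for Decr2. Among the 7 genes themselves r after that removal ran from -0.61 (Meiob and Decr2) to 0.51 (Tedc2 and Decr2).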

How the data were processed

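Liver RNA of 14 mice was measured. The authors deposited 1 table of estimated counts for 57180 genes, with 1 column per library. The submitters' processing notes name STAR, Salmon and GRCm39. The sources used here give no tool version, annotation or strand setting. Per the labels' protocols RNA came from Trizol and an RNeasy column, and libraries from a NuGen Ovation kit. Estimated counts were rounded. Total counts ran from 18573739 to 40925973 and no 2 libraries were identical. The labels number the mice separately, and p-values set the difference between genotypes against the spread between mice. The labels say littermate without naming the litter, so litter was not in the fit.

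Genes were kept with filterByExpr of edgeR 4.0.16 (count minimum 10, total minimum 15), scaled with TMM and fitted over all 14 libraries with the quasi-likelihood test in R 4.3.3, two-sided. Benjamini-Hochberg adjustment ran over 16201 genes, threshold 0.05. The trend coded WT, Het and Homo as 0, 1 and 2. The fit was tested on simulated counts. Log2 CPM used a prior count of 2. DESeq2 1.42.0 was an alternative, as were other scalings, filters, library sets and windows. Chromosome and gene order came from GENCODE M21 (GRCm38), so no coordinates of the counts are given. BLAST 2.17.0 found no transcript of another gene with at least 90% identity over at least 50% of a transcript of the 7 genes. A Dst transcript matched Gfer at 99.8% over 33.6%.

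The 7 genes and the lists were chosen with earlier results of these data known. Named genes were the 7, Pkd1, Tsc2, genes called within 2 Mb, tested genes beside the 7, the 6 other genes of at least 1 CPM there with the largest log2 fold change, the 3 of each partner list with the smallest p and the 3 with the highest r. Exceptions are stated, and 1 gene that the rule names is not reported here.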

Additional observations from a re-analysis of the deposited data

Results flagged for a closer look

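The values of 60 named genes were examined in 3 genotypes each, 180 sets in all. In 9 sets 1 library stood far from the others (Dixon's test), and chance gives about 1 in 20. Of the 7 genes only Meiob was among them: Het 1 was at 7.56 CPM, against 4.83 to 5.05 CPM in the other Het libraries. Tsc2 was at 37.1 CPM in Homo 1, against 41.2 to 41.6 CPM in the other Homo libraries. Beside the 7 genes, Uqcc4 was at 12.6 CPM in Het 2 (others 10.1 to 10.4), Rab11fip3 at 15.3 CPM in Het 2 (others 19.2 to 19.9) and Zfp213 at 2.78 CPM in WT 1 (others 4.25 to 4.83). Further off, Abca8b was at 52.4 CPM in Homo 4 (others 61.6 to 63.1) and Eif4g1 at 581 CPM in WT 1 (others 540 to 551). Atp6v0c-ps2 was at 1.87 CPM in Het 3 (others 1.05 to 1.17) and at 0.192 CPM in WT 4 (others 0 to 0.0638).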

How the results depend on the processing

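Over all alternatives run, the log2 fold changes of the 7 genes kept their direction in each comparison. In Homo over WT Abca3 ran from 1.83 to 1.92 and Tedc2 from -2.17 to -1.90, single-library omissions included. With library totals alone, Abca3 in Homo over Het was 0.66 and its Het position 50.4%. The Pkd1 call in Homo ended with library totals alone (log2 -0.42, adjusted p = 0.0576) and ran from -0.49 to -0.42 with single libraries left out (adjusted p up to 0.131, over all alternatives from 0.000126). The number of other genes near Pkd1 called in Homo and in the trend was 4 in each with DESeq2 (Flywch2, Ntn3, Ccnf and Pkd1), 0 in each with library totals alone, and 2 in Homo in a window of 4 Mb (Zfp943 added). With single libraries left out it ran from 0 to 1 in both, with 0 in 7 and in 9 of 14 omissions. With the replicate number as a block, Pkd1 had log2 -0.45 (adjusted p = 0.071) and 0 other genes near Pkd1 were called in Homo and in the trend. Of 12 same-numbered pairs, 2 had a correlation of deviations over 0.1. Pairs of unlike number were not examined, so whether the numbers pair the libraries cannot be told from these values. The block gave 19 calls over all genes in Homo and 11 in the trend, in place of 36 and 30. Over all genes DESeq2 called 61 in Homo, 32 in Het and 54 in the trend, no filter on low counts gave 23 in Het in place of 9 and 53 in Homo, and leaving out Homo 1 gave 23 in Homo. The Het position has no value under the block, since it was computed from group means. Meiob rests on the fewest counts and its Het position ran from 47.1% to 66.4% over omissions.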
